A study of Mus musculus with 20 samples.

Results

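The Cyp2d cluster of mouse chromosome 15 was followed in liver RNA sequencing from 20 male Lepr db/db mice. Members were taken by gene symbol. The rule names 9 genes, of which 8 (Cyp2d9, Cyp2d10, Cyp2d11, Cyp2d12, Cyp2d22, Cyp2d26, Cyp2d34 and Cyp2d40) have a row among the 22298 genes of every file. Cyp2d13, which RefSeq lists as a transcribed pseudogene, has no row and is not analysed here. All animals carried the leptin receptor mutation that makes db/db mice obese and diabetic, and all received an adeno-associated virus 8 (AAV8) injection into the tail vein at 5 weeks of age. The Vec mice received AAV8 with a non-targeting shRNA and oral vehicle, and the Vec+BBR mice the same virus with benzbromarone (BBR, a uric-acid-lowering drug) by gavage at 25 mg/kg daily for 4 weeks. The shRNA mice received AAV8 carrying shRNA against Pparg, the gene of the nuclear receptor PPARγ, with vehicle, and the shRNA+BBR mice that virus with BBR. Each group held 5 mice, 1 library each, and livers were taken after a 6 h fast. The promoter that drives the shRNA was not given in the sources used here. No lean mice and no mice without virus are among these groups, so every difference below is between obese, virus-treated animals.

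Cytochromes P450 of the CYP2D subfamily are haem enzymes of the endoplasmic reticulum. They take electrons from NADPH-cytochrome P450 reductase and use them to oxidise many basic drugs, as well as steroids and fatty acid derivatives. Mice carry an expanded tandem array of these genes where people keep a single active gene, so neighbouring mouse members are close copies of each other. Several respond to the sex-dependent rhythm of growth hormone, and Cyp2d9, a testosterone hydroxylase, is best known as a male-predominant liver transcript.

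In the GRCm38 reference the listed members lie between 82370527 and 82794294 on chromosome 15, a stretch of 424 kb. Cyp2d22, Cyp2d10, Cyp2d11, Cyp2d34, Cyp2d40 and Cyp2d26 are on the minus strand, and Cyp2d9 and Cyp2d12 on the plus strand. A further 31 annotated genes lie between the outermost members, 19 of them pseudogenes and none of them protein coding, and none of the 19 pseudogenes has a row in the files. The coding sequences are 77.9% to 94.7% identical between pairs of members. Cyp2d10 and Cyp2d11 are the closest pair at 94.7%, and Cyp2d12 and Cyp2d22 the most distant. The stretch of coding sequence around the haem-binding cysteine, where the haem iron is held, shows how little separates the genes and thus how short a sequenced fragment would fail to tell them apart. The 72 bases below join 2 exons, from the GENCODE transcripts, 5′ to 3′, with capitals at each base that differs from Cyp2d10.
Cyp2d10: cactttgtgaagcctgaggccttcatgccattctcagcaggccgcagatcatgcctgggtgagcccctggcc
Cyp2d34: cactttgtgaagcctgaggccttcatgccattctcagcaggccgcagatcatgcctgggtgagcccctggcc
Cyp2d22: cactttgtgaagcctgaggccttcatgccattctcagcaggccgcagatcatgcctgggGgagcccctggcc
Cyp2d9: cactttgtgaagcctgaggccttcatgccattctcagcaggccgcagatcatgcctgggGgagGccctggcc
Cyp2d26: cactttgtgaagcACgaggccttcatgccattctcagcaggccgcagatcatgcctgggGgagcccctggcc
Cyp2d12: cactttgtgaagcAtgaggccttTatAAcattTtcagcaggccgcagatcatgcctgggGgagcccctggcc
Over these bases Cyp2d34 equals Cyp2d10, Cyp2d22 differs from it at 1 base, Cyp2d9 at 2, Cyp2d26 at 3, Cyp2d11 at 4, Cyp2d40 at 5 and Cyp2d12 at 6. The Cyp2d10 stretch lies at chr15:82403065-82403236 on the minus strand, intron included, and that of Cyp2d9 at chr15:82456436-82456607 on the plus strand.

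The promoters of the cluster are also close copies. RefSeq promoter sequences (GRCm38.p6) matched 5 members: Cyp2d9, Cyp2d10, Cyp2d11, Cyp2d26 and Cyp2d40. Over the 250 bases before the start, Cyp2d9 and Cyp2d11 were 93.6% identical and Cyp2d9 and Cyp2d10 85%, whereas Cyp2d26 shared 60.3% to 67% with the others. The stretch ahead of the start is shown because a direct repeat of the nuclear receptor half-site, of the kind bound by HNF4α and by PPAR-RXR pairs, stands ahead of the TATA box in 3 of the 5. Capitals mark the 13 bases of the repeat, or those closest to it, and the TATA box, which on the strand shown reads TTTATA.
Cyp2d10: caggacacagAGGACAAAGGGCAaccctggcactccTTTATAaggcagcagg
Cyp2d9: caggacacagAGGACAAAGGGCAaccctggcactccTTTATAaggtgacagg
Cyp2d40: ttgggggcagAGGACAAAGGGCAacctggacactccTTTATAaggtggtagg
Cyp2d11: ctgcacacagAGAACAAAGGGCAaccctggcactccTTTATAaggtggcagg
Cyp2d26: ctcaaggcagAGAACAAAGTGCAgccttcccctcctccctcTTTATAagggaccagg
These lie at chr15:82407210-82407261 (minus), chr15:82452313-82452364 (plus), chr15:82764198-82764249 (minus), chr15:82394050-82394101 (minus) and chr15:82794261-82794317 (minus). The letters AGGNCA repeated after a spacer of 1 base, searched on both strands of the 250 bases, were found in 3 of the 5 members (Cyp2d9, Cyp2d10 and Cyp2d40) and in 0.338% of the 32817 promoters of that length. Counted from 1 at the 5′ end of the Cyp2d9 element, Cyp2d11 carried the change G3A, and Cyp2d26 carried G3A and G10T. The repeat, or the bases closest to it, ended 13 bases ahead of the TATA box in 4 of the 5 promoters and 18 bases ahead in Cyp2d26. For Cyp2d11 and Cyp2d26, which lack the repeat, the closest bases were sought only shortly ahead of a TATAAA match. Their nearness to it was thus set by the search. In Cyp2d40 the repeat lies at -117 to -105 and the TATA letters at -91 to -86 from the RefSeq start. TATAAA was found on either strand in 5 of the 5 and in 12.4% of all promoters. The letters TTCNNNGAA, a STAT5 motif found in 7.01% of all promoters, occurred in 0 of the 5 windows. A separate HNF4 motif, CAAAGTCCA, found in 0.384% of all promoters, also occurred in 0 of the 5. The same held for the motifs searched for C/EBP (1.74% of all promoters), FOXA (3.16%) and HNF1 (0.00914%). These are matches of letters, and no binding was measured here.

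Sequencing depth was 17432904 to 25024099 counts per library, and the cluster took 0.193% to 0.328% of them. Pparg, which the knockdown targets, was at 16.4 to 35.9 CPM in Vec and 28.0 to 38.3 in Vec+BBR, against 3.24 to 7.31 in shRNA and 7.19 to 21.8 in shRNA+BBR. Its log2 fold change was -2.12 (SE 0.28, adjusted p 4.5e-05) for shRNA against Vec and -1.20 (SE 0.26, adjusted p 0.0084) for shRNA+BBR against Vec+BBR, and the difference between these effects of the knockdown was 0.92 (SE 0.38, adjusted p 0.21). All 10 listed hepatocyte markers, Alb, Apob and Ttr among them, had counts in every group. The labels give no batch or date. CPM are counts scaled to a common library size with a trimmed-mean (TMM) factor, and adjusted p-values come from the quasi-likelihood test of edgeR, adjusted by Benjamini and Hochberg's method over the 12342 genes tested and called at 0.05.

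The cluster had 2 abundant members, 3 of middling level and 3 at or near 0. Levels between genes are given as FPKM (the authors' depth-scaled fragments per kilobase), since this unit is per length. In Vec livers Cyp2d10 averaged 935 ± 137 FPKM (SD, n = 5) and Cyp2d26 720 ± 93. Cyp2d9 followed at 152 ± 64, Cyp2d22 at 79.5 ± 7.6, Cyp2d40 at 58.5 ± 9.4 and Cyp2d12 at 0.83 ± 0.54. The same order of these 6 means held in each of the 4 groups on FPKM. The place of Cyp2d10 ahead of Cyp2d26 depends on the unit. On CPM Cyp2d26 had the higher mean in each group, 1297 against 1242 in Vec and 966 against 838 in Vec+BBR. The transcript length behind the FPKM of Cyp2d10 also varied between libraries, from 1128 to 1393 bases. The ranges of Cyp2d10 and Cyp2d26 overlapped in Vec, shRNA and shRNA+BBR and did not overlap in Vec+BBR, and the ranges of Cyp2d9 and Cyp2d22 overlapped in all 4 groups. Cyp2d22 and Cyp2d40 overlapped in Vec only.

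**Figure D1:**
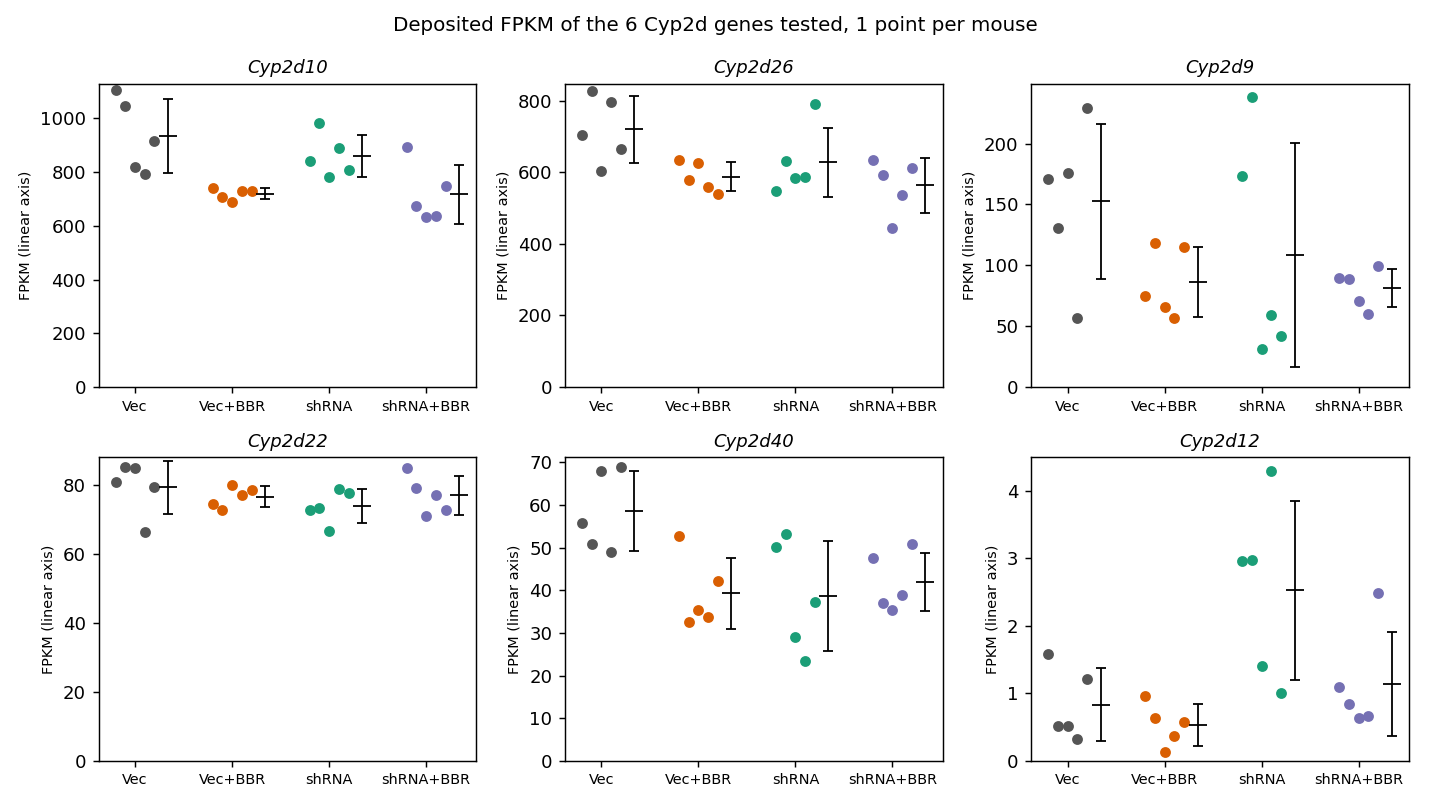
Deposited FPKM (vertical axis, linear, from 0) of the 6 tested members by group, 1 point per mouse, with mean and SD as the black bar beside the points. Cyp2d22 stays between 66.5 and 85.2 in all 20 livers, whereas Cyp2d9 runs from 31.5 to 238.

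Cyp2d11 and Cyp2d34 were at the edge of detection. Cyp2d11 had 0 to 3.01 counts, with 12 libraries at 0 and 19 at 3 counts or fewer. Cyp2d34 was at 0 in 19 libraries and had 1 count in the remaining one, Vec+BBR replicate 5. A count of 0 allows up to 3 counts, which is 0.120 to 0.172 CPM of the library total at these depths and covers counting error only, so no fold is given for either gene. Of the 8 listed members 6 passed the filter on low counts. Cyp2d10, whose coding sequence is 94.7% identical to that of Cyp2d11, had 16299 to 30562 counts.

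The first question of the design is what BBR did in livers with the control virus, and there the cluster was lower. Of the 6 members tested 3 fell in Vec+BBR against Vec (Cyp2d10, Cyp2d26 and Cyp2d40), none rose and 3 did not pass. Over all genes tested 15.5% were called, 7.58% higher and 7.88% lower. The median log2 fold change of the 6 was -0.63, beside -0.01 for all genes tested.

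Cyp2d10, the highest member on FPKM and behind Cyp2d26 on CPM, stood at 1531, 1556, 1116, 897 and 1111 CPM in Vec replicates 1 to 5 and at 996, 730.0, 815, 782 and 867 in Vec+BBR. The lowest Vec liver, replicate 4, lay below the highest Vec+BBR liver, replicate 1, and the other 4 Vec livers were above all treated ones. The log2 fold change was -0.57 (SE 0.13, adjusted p 0.0059), a fall of 32.5%, and it passed in all 20 refits that left out 1 library. Cyp2d26 stood at 1275, 1609, 1090.4, 1355 and 1153 CPM in Vec and at 1125, 858, 1054, 888 and 904 in Vec+BBR. Again only the lowest Vec liver, here replicate 3, reached into the treated range. Its log2 fold change was -0.42 (SE 0.12, adjusted p 0.024), which rose to an adjusted p of 0.081 without Vec replicate 2, 0.061 without Vec+BBR replicate 2, 0.065 without Vec+BBR replicate 4 and 0.056 without Vec+BBR replicate 5.

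Cyp2d40 stood at 69.4, 67.8, 84.2, 57.0 and 81.8 CPM in Vec and at 64.0, 33.1, 40.7, 36.7 and 48.4 in Vec+BBR. The treated livers were lower except replicate 1, which lay within the Vec range. The log2 fold change was -0.69 (SE 0.20, adjusted p 0.022). The call was lost without Vec+BBR replicate 2 (adjusted p 0.066), replicate 3 (0.054) or replicate 4 (0.065). Cyp2d22, which is often studied as a counterpart of the human enzyme, had a log2 fold change of -0.19 (SE 0.09, adjusted p 0.17), with 183 to 269 CPM in Vec and 174 to 217 in Vec+BBR. It passed only without Vec replicate 4 (log2 fold change -0.27, adjusted p 0.041).

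Cyp2d9 had a larger estimate and a wider error. It stood at 306, 251, 314, 94.4 and 390.1 CPM in Vec and at 133, 175, 109, 89.0 and 188 in Vec+BBR, with a log2 fold change of -0.97 (SE 0.44, adjusted p 0.14). Vec replicate 4 lay at the level of the treated livers and the other 4 Vec livers above all of them. Cyp2d12, near 1 CPM, had a log2 fold change of -0.78 (SE 0.54, adjusted p 0.36), with 0.51 to 2.81 CPM in Vec and 0.19 to 1.54 in Vec+BBR.

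**Figure D2:**
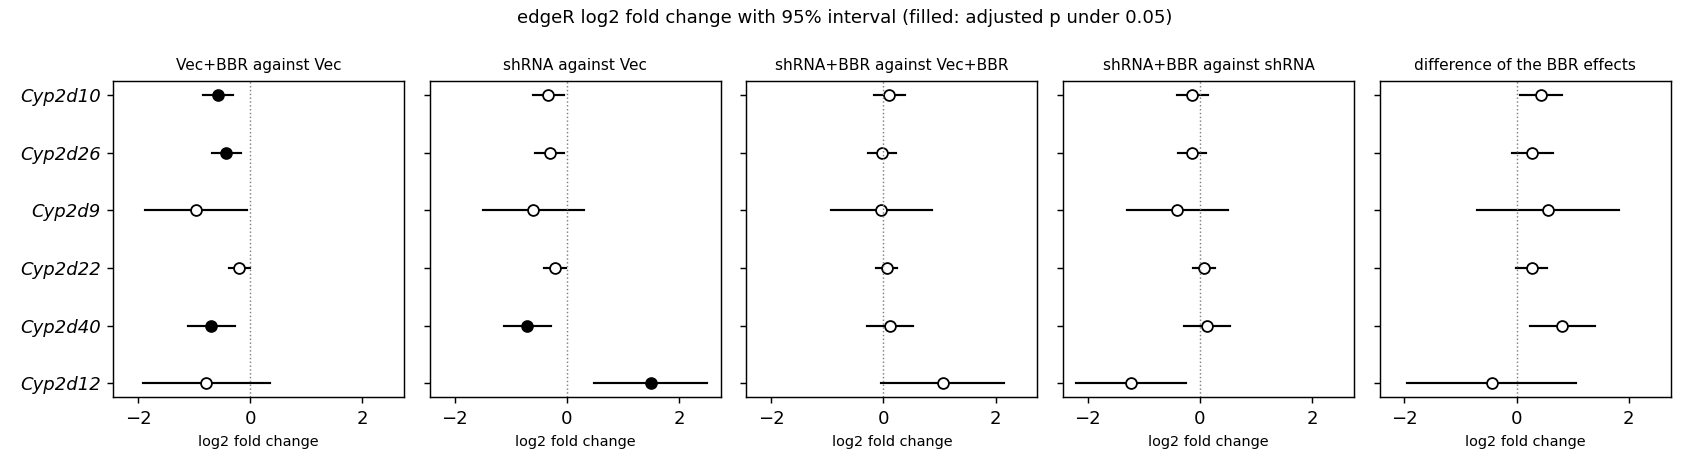
Log2 fold change (horizontal axis) with its 95% interval for each tested member in the 5 comparisons, from the edgeR fit of all 20 libraries, filled where the adjusted p is under 0.05. The 3 members called in Vec+BBR against Vec lie between -0.69 and -0.42, and the intervals of Cyp2d9 and Cyp2d12 are the widest.

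In the sum of the members it does not matter which member a shared fragment was given to, though fragments shared with copies outside the sum can still enter or leave it. The 8 members together had 3423, 3753, 2852, 2587 and 2961 CPM in Vec replicates 1 to 5 and 2531, 1971, 2236, 1994 and 2223 in Vec+BBR. The highest treated liver was below the lowest Vec liver. Among single genes tested, 4.24% were lower without overlap in this comparison, and none of the 6 members was. The log2 ratio of the group means was -0.51, and -0.37 on summed FPKM. In shRNA the sum was 2455, 2764, 2194, 2361 and 2567, and in shRNA+BBR it was 2487, 2446, 1965, 2040.3 and 2310.5. The log2 ratio was -0.34 for shRNA against Vec, 0.04 for shRNA+BBR against Vec+BBR and -0.13 for shRNA+BBR against shRNA. Cyp2d10 and Cyp2d26 made up 39.6% and 42.7% of the sum on average over the 20 livers, Cyp2d22 8.58%, Cyp2d9 7.02% and Cyp2d40 2.07%.

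**Figure D3:**
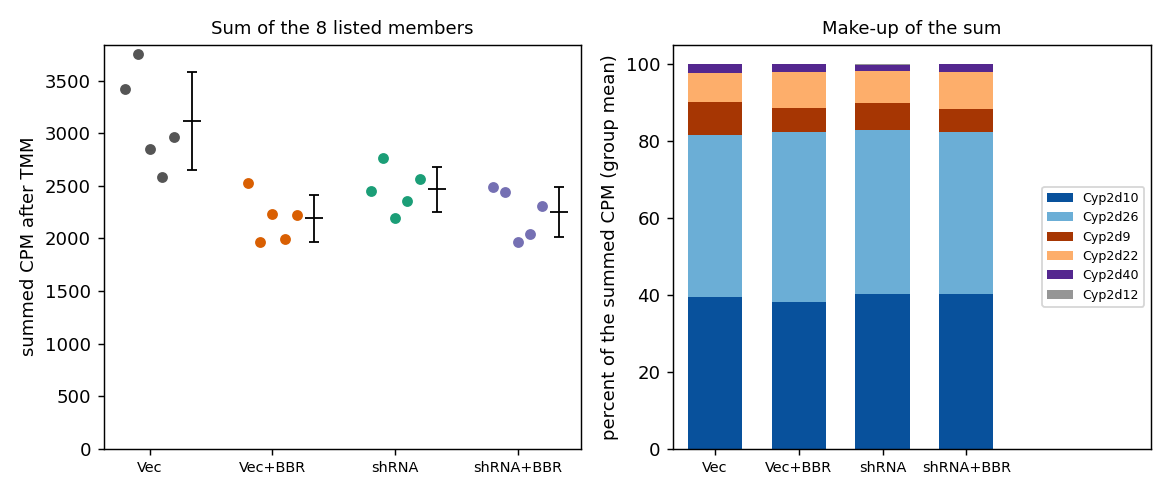
Left, summed CPM of the 8 listed members (vertical axis, from 0) by group, 1 point per mouse, with mean and SD. Right, the mean percent of that sum given by each member in each group; Vec livers lie between 2587 and 3753 and Vec+BBR livers between 1971 and 2531.

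The decline was not confined to the cluster. Of 33 other drug-metabolising P450 genes tested, 17 fell and none rose in Vec+BBR against Vec with edgeR, with a median log2 fold change of -0.71. DESeq2 called 18 lower and 1 higher, and limma on FPKM 17 lower and 3 higher. The largest falls by edgeR were Cyp3a41a (-6.01, SE 0.84, adjusted p 0.00018), Cyp2c54 (-3.72, SE 0.42, adjusted p 2.2e-05), Cyp3a44 (-3.24, SE 0.56, adjusted p 0.00095) and Cyp2c50 (-2.51, SE 0.26, adjusted p 1.0e-05), of which Cyp3a41a and Cyp3a44 are female-predominant. The falls called in the Cyp2d cluster were all smaller than these largest ones. The median of the 6 Cyp2d members, -0.63, was near that of the 33 genes. Among 16 genes of electron donors and haem supply 2 rose and 2 fell. Por, the reductase that feeds electrons to all these enzymes, averaged 978 CPM in Vec and 509 in Vec+BBR (log2 fold change -0.94, SE 0.17, adjusted p 0.0011), and Hmox2, a haem oxygenase, also fell (-0.28, SE 0.08, adjusted p 0.022). Uros of haem synthesis (0.41, SE 0.12, adjusted p 0.020) and the cytochrome Cyb5b (0.37, SE 0.12, adjusted p 0.034) rose. None of 25 transcription factors listed for drug-metabolism genes, Hnf4a, Cebpa and Rxra among them, was called in this comparison by edgeR or DESeq2, 3 had an unadjusted edgeR p under 0.05, and limma on FPKM called 1 higher.

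Part of the hepatocyte markers also fell in this comparison. Of 10 tested, 6 fell with edgeR (Tat, Cps1, Fah, Pck1, Asgr1 and Asgr2). The other 4, Alb, Apob and Ttr among them, were not called. DESeq2 called 7 lower and limma on FPKM 4. The summed level of the 10 was 118568 to 146700 CPM in Vec and 88043 to 122526 in Vec+BBR. Of the stellate cell markers 5 of 10 rose, with a summed level of 172 to 333 CPM in Vec and 373 to 412 in Vec+BBR, and of the endothelial markers 6 of 10 rose, with 141 to 182 against 174 to 236. Macrophage markers were at 158 to 401 and 213 to 337 CPM (1 of 10 higher, 2 lower), and cholangiocyte markers at 51.1 to 71.3 and 73.0 to 123 (1 of 7 tested higher). Their part in the fall of the Cyp2d genes was not tested. In bulk tissue fewer hepatocytes and less of a transcript per hepatocyte cannot be told apart. Kidney and gut markers, relevant because CYP2D genes are also used in those tissues, summed to 45.6 to 104 CPM over all livers, and 4 of the 7 were at 0 throughout Vec+BBR.

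Knockdown alone gave 1 call in each direction, while the estimates of 5 of the 6 members were negative. In shRNA against Vec 1 of the 6 members rose (Cyp2d12), 1 fell (Cyp2d40) and 4 did not pass, where 13.2% of all genes were called, 5.28% higher and 7.91% lower. The median log2 fold change of the 6 was -0.32, beside -0.01 over all genes. Both comparisons made so far use the same 5 Vec livers.

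Cyp2d40 stood at 58.6, 60.3, 33.8, 26.4 and 42.4 CPM in shRNA replicates 1 to 5, so that replicates 1 and 2 reached the lower end of the Vec range. The log2 fold change was -0.70 (SE 0.20, adjusted p 0.023). The call was lost without Vec replicate 3 (adjusted p 0.059), shRNA replicate 3 (0.067) or shRNA replicate 4 (0.068), and missed at 0.0504 with only these 2 groups in the fit. Cyp2d12 stood at 2.81, 0.90, 0.78, 0.51 and 1.98 CPM in Vec and at 4.84, 4.69, 2.21, 6.75 and 1.54 in shRNA. The shRNA livers of replicates 3 and 5 lay within the Vec range and the other 3 above it. The log2 fold change was 1.50 (SE 0.48, adjusted p 0.045), and of the 20 refits without 1 library 10 kept the call. Cyp2d12 lost it without Vec replicate 2 (0.090), 3 (0.10) or 4 (0.073), without Vec+BBR replicate 2 (0.051), 4 (0.0503) or 5 (0.053), without shRNA replicate 1 (0.088), 2 (0.078) or 4 (0.13), and without shRNA+BBR replicate 1 (0.051).

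Cyp2d10 and Cyp2d26 had lower means without a call. Cyp2d10 stood at 969, 1076, 932, 1052 and 927 CPM in shRNA (log2 fold change -0.33, SE 0.13, adjusted p 0.10), a narrow range that overlapped the lower part of Vec. Cyp2d26 stood at 930 to 1317 (-0.31, SE 0.12, adjusted p 0.11) and Cyp2d22 at 183 to 211 (-0.21, SE 0.09, adjusted p 0.13). Without Vec replicate 4 both Cyp2d10 (-0.42, adjusted p 0.019) and Cyp2d22 (-0.29, adjusted p 0.023) passed, and without shRNA replicate 5 Cyp2d26 did (-0.40, adjusted p 0.039).

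Cyp2d9 separated the 5 knockdown livers. It stood at 291 and 385 CPM in shRNA replicates 1 and 2 and at 53.1, 97.7 and 69.3 in replicates 3, 4 and 5, a spread of 7.26-fold within the group, so the log2 fold change against Vec was -0.60 with an SE of 0.43 (adjusted p 0.38). It was -1.08 without shRNA replicate 2, -0.84 without shRNA replicate 1 and -0.36 without shRNA replicate 3. Of 23 male-biased liver genes tested 8 fell and none rose in shRNA against Vec with edgeR and with DESeq2, and 4 fell with limma on FPKM. Among the 8 were Mup21 (-1.84, SE 0.26, adjusted p 8.4e-05), Cyp4a12a (-1.65, SE 0.29, adjusted p 0.00079), Cyp4a12b (-1.48, SE 0.48, adjusted p 0.045) and Elovl3 (-1.09, SE 0.28, adjusted p 0.012). In Vec+BBR against Vec 10 of the 23 fell and 1 rose. Of 23 female-biased genes 5 rose and none fell in shRNA against Vec with edgeR (DESeq2 5 and limma 6 higher), while 8 fell and 1 rose in Vec+BBR against Vec. No member of the cluster is in either list.

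The remaining P450 genes went both ways under knockdown. Of the 33, 3 rose (Cyp3a44, Cyp2b10 and Cyp2c39) and 3 fell (Cyp2e1, Cyp2c38 and Cyp2c67), with a median of 0.03. Among factors, Pparg and Cebpa (-0.45, SE 0.11, adjusted p 0.0083) fell, and Onecut1 (1.27, SE 0.29, adjusted p 0.0063) and Ncoa1 (0.46, SE 0.10, adjusted p 0.0058) rose. Of the electron donor and haem list 4 of 16 fell (Blvrb, Uros, Alad and Fech) and none rose. Of the hepatocyte markers 0 of 10 were called by edgeR and 3 had an unadjusted p under 0.05, while DESeq2 called 1 lower and limma on FPKM 1 higher; their summed level was 111104 to 129059 CPM in shRNA.

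Under BBR no member was called as changed by the knockdown. In shRNA+BBR against Vec+BBR 0 of 6 members passed with edgeR, DESeq2 or limma, where edgeR called 8.13% of all genes. At an unadjusted p under 0.05 there were 0 by edgeR, beside 24.7% of all genes. DESeq2 gave 1 (Cyp2d12, log2 fold change 1.08, p 0.033) and limma 1. Cyp2d10 stood at 1013, 974, 834, 791 and 905 CPM in shRNA+BBR (log2 fold change 0.11, 95% interval -0.16 to 0.38) and Cyp2d26 at 1045, 1044, 766, 899 and 996 (-0.02, interval -0.28 to 0.23). The intervals of both thus reach no further than a change of 0.38 on the log2 scale. Cyp2d40, at 53.8, 44.7, 41.8, 44.5 and 56.7 CPM, had 0.11 (interval -0.30 to 0.53) and Cyp2d22 0.06 (interval -0.14 to 0.25). Cyp2d9 had -0.03 (interval -0.93 to 0.86) and Cyp2d12 1.06 (interval -0.04 to 2.16, adjusted p 0.22), which leave room for larger changes. In the same comparison 8 of the 33 other P450 genes rose and 1 fell, led by Cyp3a41a (4.76, SE 0.80, adjusted p 0.0014), Cyp3a44 (3.07, SE 0.56, adjusted p 0.0028), Cyp2c54 (1.77, SE 0.39, adjusted p 0.0085) and Cyp2c50 (1.32, SE 0.25, adjusted p 0.0037).

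BBR in knockdown livers gave no call either. In shRNA+BBR against shRNA 0 of 6 members passed with edgeR, DESeq2 or limma, and 1 had an unadjusted edgeR p under 0.05, where 15.7% of all genes were called and 33.2% had an unadjusted p under 0.05. That member was Cyp2d12, at 1.74, 1.45, 0.99, 0.96 and 3.42 CPM in shRNA+BBR (log2 fold change -1.22, SE 0.47, adjusted p 0.079), which passed without shRNA+BBR replicate 5 (-1.63, adjusted p 0.028). Cyp2d10 had -0.13 (interval -0.40 to 0.14), Cyp2d26 -0.14 (interval -0.40 to 0.11), Cyp2d40 0.13 (interval -0.29 to 0.54), Cyp2d22 0.08 (interval -0.12 to 0.27) and Cyp2d9 -0.40 (interval -1.30 to 0.49). Cyp2d9 in shRNA+BBR stood at 146, 156, 122, 96.6 and 157 CPM, all but replicate 4 inside the gap between the low and the high shRNA livers. Of the other 33 P450 genes 10 fell and 1 rose, with a median of -0.44, and Por fell again (-0.60, SE 0.17, adjusted p 0.024).

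Whether the effect of BBR differed with and without knockdown was tested as an interaction. Of the 6 members 0 passed with edgeR, DESeq2 or limma, where edgeR called 0.146% of all genes. The limma fit used FPKM without further scaling between libraries. Its median difference over all genes was -0.15, beside 0.01 with edgeR, so it was shifted against positive differences. At an unadjusted p under 0.05 there were 2, namely Cyp2d40 (difference of the log2 fold changes 0.82, SE 0.28, p 0.0084, adjusted p 0.15) and Cyp2d10 (0.43, SE 0.18, p 0.028, adjusted p 0.22), beside 18.5% of all genes. The difference was positive for 5 of the 6 members and -0.44 (SE 0.72) for Cyp2d12. For Cyp2d10 it depended on the unit and was 0.096 with limma on FPKM. The fall called with the control virus and not with the knockdown virus is therefore not shown to differ between them.

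How reads were divided among near-identical copies limits the single members unequally. Of the 50-base windows of the Cyp2d10 transcript 37.1% occur exactly in another member, 14.8% of those of 100 bases and 6.4% of those of 150 bases. The shares at 50 bases were 36% for Cyp2d11, 27.8% for Cyp2d9, 16.6% for Cyp2d40, 15.8% for Cyp2d12, 10.5% for Cyp2d26 and 6.14% for Cyp2d22, and at 150 bases they were 0% for Cyp2d26, Cyp2d22 and Cyp2d40. Copies outside the 8 members add to this: with all other genes counted, the shares at 50 bases were 24.1% for Cyp2d40, 40.5% for Cyp2d10 and 29% for Cyp2d9, and the pseudogene Cyp2d41-ps alone held 13.4% of the windows of Cyp2d40 and 6.31% of those of Cyp2d9. The longest run shared exactly between members is 230 bases, between Cyp2d10 and Cyp2d11, followed by 164 between Cyp2d9 and Cyp2d10 and 158 between Cyp2d9 and Cyp2d12. The read length was not given in the sources used here. Estimated counts that are not whole numbers show where reads were split: those of Cyp2d9 and Cyp2d10 were not whole in any of the 20 libraries, as for 6.06% of the 9795 genes with a mean count of at least 50. Counts were not whole in 18 libraries for Cyp2d40, 17 each for Cyp2d26 and Cyp2d12 and 15 for Cyp2d22, whereas 81.3% of the 9795 genes were whole in every library.

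**Figure D4:**
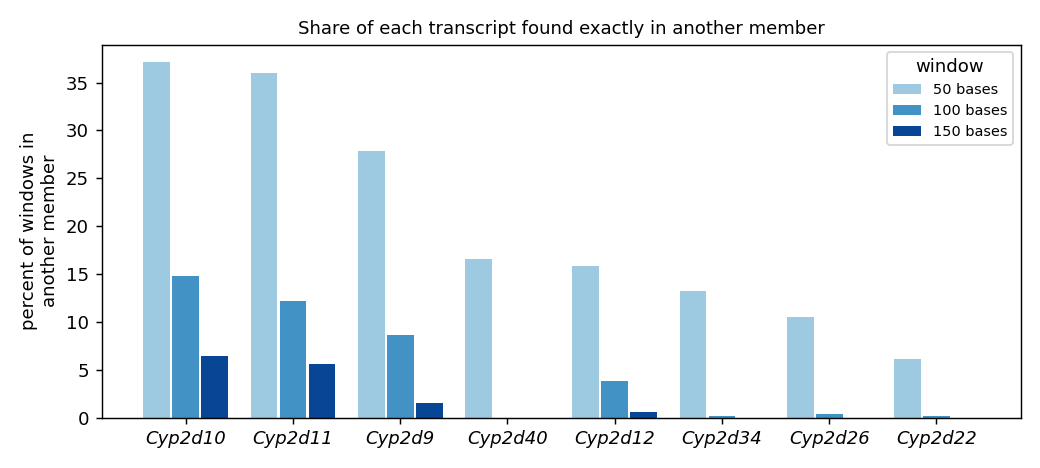
Percent of all windows of 50, 100 and 150 bases of each member's transcript (vertical axis, from 0) that occur exactly in the transcript of another member. Cyp2d10 and Cyp2d11 share most at every length, 37.1% and 36% at 50 bases, and Cyp2d22 least at 50 bases, 6.14%.

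The deposited units also differ for Cyp2d10. Counts divided by FPKM and library total give the transcript length behind the FPKM. It was 1163 bases in all 20 libraries for Cyp2d40, 1694 to 1698 for Cyp2d26 and 1639 to 1703 for Cyp2d9, but 1128 to 1393 for Cyp2d10, whose full transcript in GENCODE has 1648 bases. The median length for Cyp2d10 also differed between groups, at 1282 bases in Vec, 1193 in Vec+BBR, 1169 in shRNA and 1262 in shRNA+BBR. On FPKM the median of all genes rose by 0.13 on the log2 scale in Vec+BBR against Vec, and there limma gave Cyp2d10 a log2 fold change of -0.37 (SE 0.11, adjusted p 0.021), Cyp2d40 -0.58 (SE 0.19, adjusted p 0.042) and Cyp2d26 -0.28 (SE 0.11, adjusted p 0.089). In shRNA against Vec limma on FPKM gave Cyp2d10 -0.11, beside -0.33 with edgeR, and its median over all genes was 0.10. Unit and test both differ from the edgeR fit here. Their parts in the smaller values of Cyp2d10 and in the lost call of Cyp2d26 cannot be told apart.

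Other genes around the cluster showed no common change. Of 53 genes annotated within 200 kb of the outermost members, or between them, 13 have a row and 8 were tested. In Vec+BBR against Vec 2 of them fell, Shisa8 (-2.50, SE 0.74, adjusted p 0.026) and Cenpm (-0.87, SE 0.22, adjusted p 0.0096), with a median of -0.15. Over all genes 7.88% were called lower there. In shRNA against Vec Tcf20 rose (0.46, SE 0.15, adjusted p 0.042). Srebf2, which encodes a sterol regulator, had 0.00 (SE 0.13) and 0.15 (SE 0.13) in these comparisons, and Smdt1 -0.09 (SE 0.09) in both. In shRNA+BBR against Vec+BBR Shisa8 (3.03, SE 0.70, adjusted p 0.012) and Cenpm (0.83, SE 0.21, adjusted p 0.021) rose, where 8.13% of all genes were called. In shRNA+BBR against shRNA Tcf20 fell (-0.66, SE 0.15, adjusted p 0.0084), where 15.7% were called. None of the 8 was called for the difference of the BBR effects.

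Within groups the members varied partly together. With group means removed from log2 CPM, Spearman's rho over the 20 livers was 0.63 between Cyp2d9 and Cyp2d12, 0.61 between Cyp2d9 and Cyp2d40, 0.59 between Cyp2d10 and Cyp2d22 and 0.52 between Cyp2d10 and Cyp2d26, but -0.30 between Cyp2d9 and Cyp2d26. These are descriptions over livers that share libraries and scaling, and any pair of members may also share reads. The genes outside the cluster most like its summed level in the same measure were Rdh5 (0.91), Serpinf1 (0.91), Rbfa (0.89), Slc46a1 (0.89) and Phyhd1 (0.87). Rdh5 encodes a retinol dehydrogenase and Slc46a1 a folate transporter.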

How the data were processed

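The authors sequenced oligo(dT)-enriched liver RNA (NEBNext kit, NovaSeq) and deposited estimated counts and FPKM per gene and library. Per the labels the build was mm10; aligner, counter and annotation were not given in the sources used here. Members, lists and comparisons were chosen with earlier results of these data known. Counts were rounded to whole numbers, filtered with filterByExpr (minimum count 10, minimum total 15), scaled by TMM (factors 0.873 to 1.14) and fitted in edgeR 4.0.16 (R 4.3.3) with 4 group means over all 20 libraries. The quasi-likelihood test gave Benjamini-Hochberg adjusted p-values over 12342 genes, called at 0.05, and SE is the log2 fold change divided by the root of F. The fit recovered changed genes in counts simulated from its own means and dispersions. Those counts held no reads shared between genes, so the simulation does not bear on the close copies. Alternatives used DESeq2 1.42.0, limma 3.58.1 on log2(FPKM + 0.1), other scalings, filters, sample sets and a replicate block. FPKM deposited by the authors was used for levels between genes. Named genes were all members, neighbours within 200 kb, at most 4 called genes with the largest change per list, 5 genes most like the summed level and Pparg; others named were chosen after their values were seen. A result for 1 neighbouring gene is not reported here. Positions and transcripts came from GENCODE on GRCm38, promoters from RefSeq. Each library is 1 mouse; no 2 libraries of a group agreed within sampling noise. Depth was 17432904 to 25024099 counts per library, so genes near 1 CPM rest on few reads. No protein sequences were used here.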

Additional observations from a re-analysis of the deposited data

How the results depend on the processing

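Removing any 1 library gave 1 to 4 members called in Vec+BBR against Vec (3 with all libraries), 0 to 3 in shRNA against Vec (2), 0 to 1 in shRNA+BBR against shRNA (0), and 0 in the other 2 comparisons. In Vec+BBR against Vec 1 was left without Vec+BBR replicate 2 or replicate 4, and 4 without Vec replicate 4. In shRNA against Vec none was left without Vec replicate 3 or shRNA replicate 4, and 3 fell without Vec replicate 4. In that comparison the count was 1 with at least 10 counts in every sample, which removes Cyp2d12 from the test, 0 with only the 2 groups compared in the fit, and 5 at an unadjusted p under 0.05. At an unadjusted p under 0.05 it was 1 in shRNA+BBR against shRNA and 2 for the difference of the BBR effects. Signs of 3 uncalled values turned: Cyp2d26 in shRNA+BBR against Vec+BBR was 0.0067 with upper quartile factors, Cyp2d10 there was -0.017 on FPKM, and Cyp2d9 in shRNA+BBR against shRNA was 0.0062 on FPKM. Leaving out 1 library gave -0.061 to 0.057 for Cyp2d26 and -0.16 to 0.10 for Cyp2d9 in shRNA+BBR against Vec+BBR, and -0.014 to 0.26 for Cyp2d40 and -0.64 to 0.082 for Cyp2d9 in shRNA+BBR against shRNA. The cause of these shifts was not tested. The summed level kept within its replicate spread (SD 0.163 on the log2 scale) in all alternatives. The replicate numbers are not shown to pair the mice, since correlations of same-numbered libraries ran from -0.28 to 0.24. A replicate block called 1 member in shRNA+BBR against shRNA, Cyp2d12 (adjusted p 0.0499), and changed no other member's call. Over all genes, the calls for the difference of the BBR effects were 9 higher and 9 lower with edgeR, and 175 and 139 with DESeq2, 23 and 12 with upper quartile factors and 7 and 27 with limma on FPKM. In Vec+BBR against Vec they were 936 higher and 972 lower, against 1629 and 388 on FPKM and 556 and 622 with only the 2 groups. In shRNA against Vec they were 652 and 976, against 1066 and 488 on FPKM. In shRNA+BBR against Vec+BBR they were 409 and 595, against 552 and 486 with upper quartile factors, and in shRNA+BBR against shRNA 1033 and 899, against 1213 and 723. Leaving out 1 library moved the all-gene totals, and so the background shares, further: 1237 (without Vec replicate 2) to 2395 in Vec+BBR against Vec, 1015 (without shRNA replicate 4) to 2284 in shRNA against Vec, 538 (without shRNA+BBR replicate 2) to 1217 in shRNA+BBR against Vec+BBR, 661 (without shRNA+BBR replicate 3) to 2527 in shRNA+BBR against shRNA, and 5 (without Vec+BBR replicate 4) to 122 (without Vec replicate 4) for the difference of the BBR effects.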

Other observations

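The values here were looked at after the main results were seen and are descriptions. With group means removed, Cyp2d12 varied from liver to liver most like the major urinary protein genes, which encode male-predominant pheromone carriers secreted by the liver. The 5 tested genes most like it were Mup9 (Spearman's rho 0.90 over 20 livers), Mup14 (0.90), Mup18 (0.90), Mup22 (0.89) and Mup7 (0.88). Over the 19 Mup genes tested rho ran from 0.40 to 0.90, with a median of 0.77. The Mup genes are near-identical copies and share reads, so they are not 19 separate measurements. Between groups, the median log2 fold change of the Mup genes was -0.98 in Vec+BBR against Vec and -1.23 in shRNA+BBR against shRNA, where Cyp2d12 had -0.78 and -1.22. It was -0.93 in shRNA against Vec and -1.15 in shRNA+BBR against Vec+BBR, where Cyp2d12 had 1.50 and 1.06. Of these values of Cyp2d12 the 1.50 alone passed the test. Most of the 19 Mup genes were not called either. In Vec+BBR against Vec 3 were called lower, beside 7.88% of all genes, and in shRNA against Vec 2, beside 7.91%. In shRNA+BBR against Vec+BBR 2 were called lower, beside 595 of the 12342 genes tested. None was called higher in these comparisons. In shRNA+BBR against shRNA 3 were called lower and 1 higher, beside 899 and 1033 of the 12342.

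Vec replicate 4, at 94.4 CPM for Cyp2d9, was also the lowest Vec liver for 11 of the 23 male-biased genes tested, and for 26% of all genes tested. It had 313 CPM of Cyp4a12a, where the other 4 Vec livers had 1049 to 1276, and 249.7 CPM of Mup20, where they had 803 to 1257. In the other groups the liver most often lowest in these genes was not the lowest in Cyp2d9, except in shRNA+BBR. It was Vec+BBR replicate 3 (13 of 23, beside 15.3% of all genes), where Cyp2d9 was lowest in replicate 4, shRNA replicate 5 (15 of 23, beside 22.8%), where Cyp2d9 was lowest in replicate 3, and shRNA+BBR replicate 4 (10 of 23, beside 14.2%), which was also lowest in Cyp2d9. With group means removed, rho with Cyp2d9 was positive for 22 of the 23 male-biased genes, with a median of 0.43, and for 2 of the 23 female-biased genes, with a median of -0.32. In the same order the medians were 0.49 and -0.03 for Cyp2d10, 0.495 and -0.05 for Cyp2d12 and 0.28 and -0.13 for Cyp2d40. They were 0.155 and -0.05 for Cyp2d22 and 0.05 and 0.37 for Cyp2d26. A positive median with the male-biased genes was thus not particular to Cyp2d9. The male-biased list holds Mup genes, which share reads, and the share of positive rho over all genes was not computed.

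A gap test for a single outlying liver (limit 0.71 for 5 values) was run on the 6 members and their sum in each group. None of the 28 sets passed it.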
